A study of Mus musculus with 9 samples.

Results

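The tryptophan catabolism and aryl hydrocarbon receptor (AhR) genes described here were chosen by symbol: Ido1, Il4i1, Kynu, Ahr, Ahrr, Tiparp and Cyp1b1. All 7 members were found in the deposited table of 18042 gene symbols, and all 7 were among the 13090 genes that passed the filter on low counts. The RNA came from tumour-associated macrophages, sorted as CD11b+ F4/80+ cells from subcutaneous tumours of MC38, a mouse colon carcinoma line. The hosts were female wild-type C57BL/6 mice aged 6 to 8 weeks. On day 9 the mice were assigned at random. Control mice then received solvent into the tumour (PBS in the library descriptions), and the other groups received OMVs or IN@OMVs into the tumour at 12.5 µg of vesicle protein per mouse (625 µg per kg). Each group held 3 biological replicates. The time from treatment to harvest is not stated, nor whether 1 mouse or several gave a replicate, so the p-values measure only the spread between these libraries. Vesicles of the outer membrane that Gram-negative bacteria shed are commonly called OMVs. The labels do not spell out IN.

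Macrophages break down tryptophan by several routes. Ido1 opens the tryptophan ring in the first step towards kynurenine, and Kynu, kynureninase, cleaves kynurenine and 3-hydroxykynurenine further down that route. Il4i1 is a secreted amino acid oxidase that turns tryptophan and phenylalanine into keto acids. Kynurenine and the indole products of Il4i1 can bind AhR, a transcription factor that waits in the cytosol with HSP90 and, once it has bound a ligand, pairs with Arnt in the nucleus. The pair binds DNA at sites around the letters GCGTG and induces Cyp1b1, a cytochrome P450, and its own feedback inhibitors Ahrr, which competes for Arnt, and Tiparp, an ADP-ribosyltransferase that lowers AhR activity.

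The 250 bases upstream of the annotated start are shown for the 3 members that are classical AhR targets and for Il4i1, the member on which the comparisons below turn. They are RefSeq promoter sequences of build GRCm38.p6, which held 4 of the 7 members, printed 5′ to 3′ on the gene's own strand with each GCGTG, or its reverse complement CACGC, in capitals.
Ahrr (chr13:74292332-74292581, minus strand): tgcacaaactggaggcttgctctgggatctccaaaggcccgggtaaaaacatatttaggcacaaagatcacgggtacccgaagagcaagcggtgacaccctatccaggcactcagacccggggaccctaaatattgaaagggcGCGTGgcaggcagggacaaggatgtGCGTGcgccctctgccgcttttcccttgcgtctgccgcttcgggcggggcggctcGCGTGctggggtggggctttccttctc
Tiparp (chr3:65528197-65528446, plus strand): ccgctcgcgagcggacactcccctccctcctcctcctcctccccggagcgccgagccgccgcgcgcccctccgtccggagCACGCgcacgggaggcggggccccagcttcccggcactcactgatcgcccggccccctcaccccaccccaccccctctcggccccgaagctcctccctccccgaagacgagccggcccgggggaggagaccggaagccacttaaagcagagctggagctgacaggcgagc
Cyp1b1 (chr17:79715062-79715311, minus strand): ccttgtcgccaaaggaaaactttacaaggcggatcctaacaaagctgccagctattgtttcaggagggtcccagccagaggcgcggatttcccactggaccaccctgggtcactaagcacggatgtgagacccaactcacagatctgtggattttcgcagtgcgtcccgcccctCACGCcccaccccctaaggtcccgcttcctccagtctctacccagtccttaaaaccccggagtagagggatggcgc
Il4i1 (chr7:44836038-44836287, plus strand): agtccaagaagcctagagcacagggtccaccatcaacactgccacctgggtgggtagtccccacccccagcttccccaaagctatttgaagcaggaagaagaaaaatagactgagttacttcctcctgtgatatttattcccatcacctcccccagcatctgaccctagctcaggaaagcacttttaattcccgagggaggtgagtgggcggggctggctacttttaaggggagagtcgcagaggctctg
Searched on both strands, GCGTG occurred 3 times upstream of Ahrr, with first bases 107, 82 and 27 bases before the start. It occurred once each upstream of Tiparp (170 bases before the start) and Cyp1b1 (76 bases before) and 0 times upstream of Il4i1. Of all 32851 promoters of the same length 28.2% held it, and a match is a description of the letters, not a bound site. The interferon-gamma element TTCNNNGAA, where N is any base, occurred in 0 of these 4 sequences and in 7.02% of all promoters. Ido1, Kynu and Ahr had no sequence in this set, so neither motif was searched upstream of them.

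Levels are given as CPM, counts scaled by the usual factor to the effective library size. Total expected counts (estimated reads per library) ranged from 16813230 to 17288322. The sort's markers were present: 11 macrophage markers, Adgre1 (F4/80) and Itgam (CD11b) among them, summed to 17065 to 24218 CPM, and none was at 0 in any library. Libraries stood apart in transcripts of other cells. T cell markers (8 of the 10 listed were in the table) summed to 199 to 234 CPM in the library numbered 1 of each group and to 45.2 to 99.9 CPM in the other 6. Fibroblast markers (7 of 7) summed to 1450 CPM in IN@OMVs 1 and to 3339 to 5639 CPM in the other 8. Neutrophil markers (7 of 7) summed to 768 to 1118 CPM in Control, 548 to 727 CPM in OMVs and 129 to 195 CPM in IN@OMVs. Endothelial markers (5 of 5) summed to 25.7 to 41.4 CPM, epithelial or tumour cell markers (5 of 5) to 36.1 to 64.8 CPM and markers shared by dendritic cells (4 of 4) to 170 to 249 CPM over the 9 libraries.

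The members differed widely in abundance. Per kilobase of the longest coding transcript in GENCODE M21, mean levels over the 9 libraries ran from 0.411 CPM for Ahrr and 0.908 for Ido1 through 1.29 for Cyp1b1, 1.92 for Il4i1, 2.44 for Kynu and 5.03 for Ahr to 19.6 for Tiparp. On that scale Ahrr lay above 5.83%, Ido1 above 11.4%, Cyp1b1 above 14.3% and Il4i1 above 18.2% of the 12666 tested genes with a length. Kynu lay above 21.2%, Ahr above 33.6% and Tiparp above 70.4%. Ido1 and Ahrr were the most weakly expressed members: Ido1 had 11 to 50 counts per library and Ahrr 25 to 42. Cyp1b1, with 16 to 221 counts, and Il4i1, with 54 to 100, were also low. Even so, no member passed the filter through 1 group alone, since each had at least 11 counts in all 9 libraries. All counts of the members were whole numbers.

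**Figure D1:**
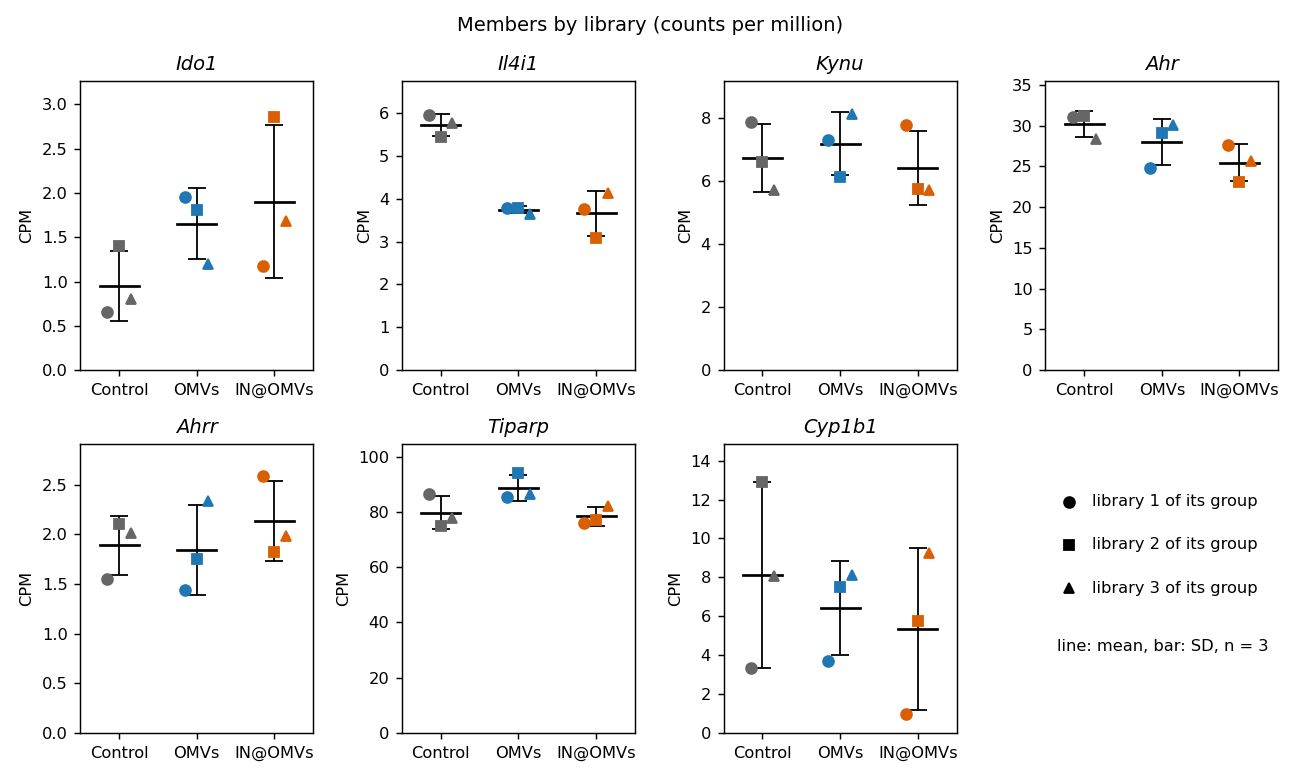
Level of each member in CPM (y axis, from 0) in the 3 libraries of Control, OMVs and IN@OMVs, with symbols for the library number, a line at the mean and a bar for the SD. Il4i1 is higher in all 3 Control libraries (5.44 to 5.96 CPM) than in the 6 others, while the 9 values of Cyp1b1 spread from 0.985 to 12.9 CPM.

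Among the enzymes that act on tryptophan, Il4i1 fell with IN@OMVs. Its level was 5.96, 5.44 and 5.76 CPM in Control 1, 2 and 3, 3.79, 3.79 and 3.64 CPM in OMVs, and 3.76, 3.08 and 4.13 CPM in IN@OMVs. Every Control library lay above every treated library, and the treated groups overlapped each other. The means were 5.72 ± 0.26 CPM in Control, 3.74 ± 0.08 in OMVs and 3.66 ± 0.53 in IN@OMVs (SD, n = 3 each). IN@OMVs against Control gave a log2 fold change of -0.65 ± 0.15 (SE, 95% interval -0.98 to -0.31, edgeR adjusted p = 0.033). OMVs against Control gave nearly the same size, -0.61 ± 0.15 (-0.94 to -0.28), without passing after adjustment over all genes (edgeR adjusted p = 0.182). Both comparisons use the same 3 Control libraries. IN@OMVs and OMVs differed by -0.03 ± 0.15, and the interval of that difference ran from -0.37 to 0.30 (edgeR adjusted p = 0.957). In bulk RNA, fewer cells of a type that express a gene and less of its RNA per cell cannot be told apart.

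The size of the Il4i1 difference between IN@OMVs and Control held, but its call rested on single settings. Over 16 alternative analyses the log2 fold change lay between -0.74 and -0.53 and the adjusted p between 0.0187 (DESeq2) and 0.121, with 5 passing and 11 not. With the replicate number as a block, edgeR's adjusted p was 0.0528. It was 0.112 without Control 1, 0.0948 without Control 2, 0.121 without Control 3 and 0.0877 without IN@OMVs 2. Leaving out an OMVs library, which is in neither group compared, gave 0.0568, 0.0624 and 0.057. Without the 3 libraries numbered 1 it was 0.0677 at a log2 fold change of -0.64.

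**Figure D2:**
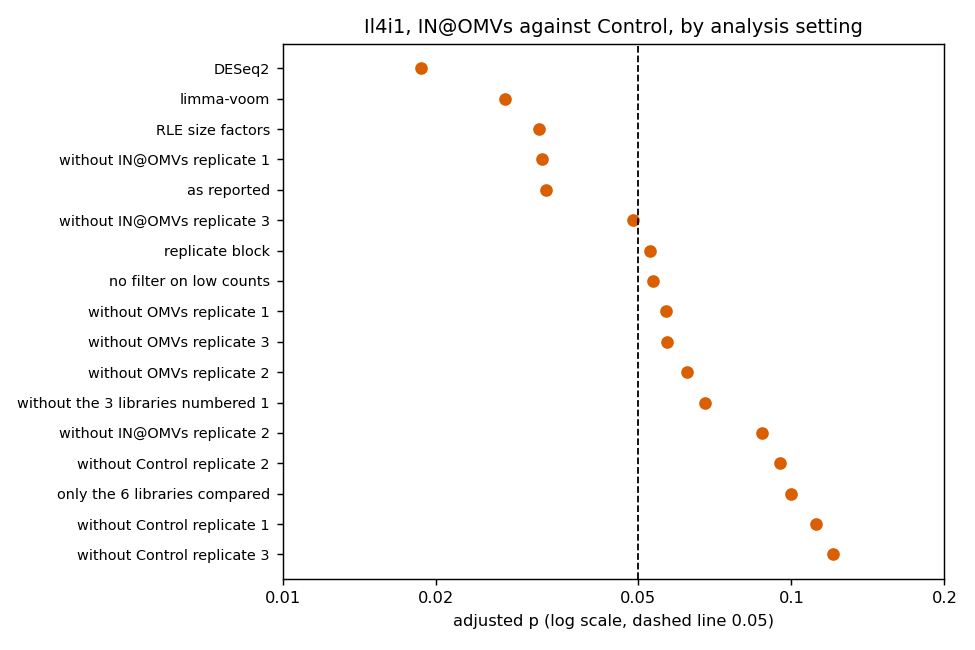
Adjusted p (x axis, log scale) of Il4i1 in IN@OMVs against Control under the reported analysis and 16 alternatives (y axis), with a dashed line at 0.05. The points run from 0.0187 to 0.121, with the reported value at 0.033.

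Some transcripts of other cells moved with Il4i1. Monocyte markers (5 of 5, none at 0) summed to 1514 to 1846 CPM in Control, 1098 to 1242 CPM in OMVs and 963 to 1155 CPM in IN@OMVs, so in this sum Control again lay above every treated library. Of the 5, 4 (Ccr2, Chil3, Plac8 and Vcan) had lower means in both treated groups. Ly6c2 went the other way, at 82.1 ± 18.7 CPM in Control, 84.7 ± 8.93 in OMVs and 108 ± 34.0 in IN@OMVs (SD, n = 3 each). Il4i1 is also known from mature dendritic cells and from B cells. Mature dendritic cell markers (8 of 8) summed to 156 to 186 CPM in Control, 152 to 164 CPM in OMVs and 159 to 184 CPM in IN@OMVs, ranges that overlap. Of these, Lamp3 had at most 1 count in any library and was at 0 in all treated libraries, while Fscn1, Cd83, Ccl22 and Ccr7 had group means of 14.1 to 64.4 CPM. The chemokine Ccl22, like Il4i1, was lower in every OMVs library than in Control (18.4 ± 0.88 against 27.3 ± 5.93 CPM, SD, n = 3 each; log2 fold change -0.57 ± 0.14, edgeR adjusted p = 0.198), but in IN@OMVs it stood at 32.0 ± 1.81 CPM and overlapped Control. B cell markers (5 of the 6 listed) summed to 3.42 to 6.28 CPM over the 9 libraries, and each of Cd79a and Ms4a1 was at 0 in at least 1 library. Neutrophil markers, at 768 CPM or more in Control and 727 CPM or less in the treated libraries, also separated Control. Unlike Il4i1, they also separated OMVs (548 to 727 CPM) from IN@OMVs (129 to 195 CPM). The part of monocytes, neutrophils and mature dendritic cells in the Il4i1 result was not tested.

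The Il4i1 locus overlaps other genes. In GENCODE M21, 83.9% of the exon bases of Il4i1 are also exonic, on the opposite strand, in Tbc1d17, a gene of another protein family. The sources used here do not say whether counting used the strand. The estimated counts of Il4i1 and of Tbc1d17 were whole in all 9 libraries, so these values show no read divided between the genes, but whether reads of one were counted for the other was not tested. Tbc1d17 stood at 29.4 ± 0.79 CPM in Control, 28.5 ± 0.85 in OMVs and 26.3 ± 2.51 in IN@OMVs (SD, n = 3 each) and passed in no comparison (edgeR adjusted p = 0.301 for IN@OMVs against Control). Smaller overlaps were with Nup62 on the same strand (2.38% of the exon bases) and Atf5 on the opposite strand (2.01%). Nup62 stood at 58.4, 58.3 and 59.2 CPM in Control, OMVs and IN@OMVs. Atf5 stood at 36.2 ± 1.09, 48.1 ± 8.15 and 56.2 ± 22.1 CPM (SD, n = 3 each; edgeR adjusted p = 0.231 for IN@OMVs against Control). Neither passed in any comparison, and their part in the Il4i1 counts was not tested. Il4i1b, a second RefSeq gene over the same place, was listed at 0 in all 9 libraries.

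Ido1 was weakly expressed, and its mean was higher in both treated groups than in Control without passing the test. It was measured at 0.656, 1.40 and 0.807 CPM in Control 1, 2 and 3, 1.95, 1.81 and 1.19 CPM in OMVs, and 1.17, 2.85 and 1.69 CPM in IN@OMVs. The lowest values were in Control 1 and 3, and Control 2 lay within the range of both treated groups. The group means were 0.955 ± 0.395, 1.65 ± 0.40 and 1.90 ± 0.86 CPM (SD, n = 3 each). The log2 fold change against Control was 0.99 ± 0.41 for IN@OMVs (95% interval 0.07 to 1.92, edgeR adjusted p = 0.218) and 0.79 ± 0.41 for OMVs (-0.15 to 1.72, edgeR adjusted p = 0.706). Each treated library was above the Control library of its own number. With the replicate number as a block the adjusted p was 0.161 for IN@OMVs (0.98) and 0.56 for OMVs (0.83). IN@OMVs against OMVs gave 0.21 ± 0.39 (-0.67 to 1.09). Counting error alone was wide: the 11 counts of Control 1 carry an exact 95% Poisson interval of 5.49 to 19.7, and the 50 counts of IN@OMVs 2 one of 37.1 to 65.9. In IN@OMVs the SD of the counts was 15.8, against 5.72 from counting alone. Ido1 is also known from type 1 dendritic cells, whose markers (7 of 7, none at 0) summed to 180 to 188 CPM in Control, 157 to 188 CPM in OMVs and 175 to 259 CPM in IN@OMVs. Of those 7 markers 3 rose in IN@OMVs against Control, where edgeR called 6.55% of all genes. The log2 fold change was 1.33 for Batf3, 1.31 for Clec9a and 0.58 for Tlr3 (edgeR adjusted p = 0.0168, 0.00832 and 0.0104). Xcr1, at 0.99, did not pass (edgeR adjusted p = 0.194), and Itgae alone had a negative value (-0.43). The sum shows little of this, since most of it is Wdfy4 (122 CPM in Control), which hardly moved (0.03). Within each group the library with the highest sum had the lowest Ido1: Control 1 (188 and 0.656 CPM), OMVs 3 (188 and 1.19 CPM) and IN@OMVs 1 (259 and 1.17 CPM). IN@OMVs 1 was also the highest of its group in Clec9a (4.25 CPM) and Batf3 (5.54 CPM). IN@OMVs 2, the highest in Ido1, was the lowest of its group in both (3.08 and 3.48 CPM). The part of these markers in the Ido1 values was not tested.

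Kynu did not separate the groups. Its level was 7.87, 6.61 and 5.70 CPM in Control, 7.30, 6.12 and 8.12 CPM in OMVs, and 7.76, 5.76 and 5.70 CPM in IN@OMVs, libraries 1 to 3 in each. All 3 groups overlapped, and in Control and IN@OMVs the library numbered 1 was the highest. The log2 fold change was 0.09 ± 0.18 for OMVs (95% interval -0.32 to 0.51) and -0.07 ± 0.18 for IN@OMVs against Control (-0.49 to 0.35), and its sign turned when single libraries were left out. IN@OMVs against OMVs gave -0.16 ± 0.18 (-0.58 to 0.25).

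Ahr itself was lower in all 3 IN@OMVs libraries than in Control, without passing the test. It stood at 31.1, 31.2 and 28.3 CPM in Control, 24.8, 29.2 and 30.1 CPM in OMVs, and 27.6, 23.0 and 25.7 CPM in IN@OMVs. OMVs overlapped both other groups, and the highest IN@OMVs library was just below the lowest Control library. The order of the means was Control (30.2 ± 1.61 CPM), OMVs (28.0 ± 2.82) and IN@OMVs (25.5 ± 2.29; SD, n = 3 each), and neither step of that order passed. IN@OMVs against Control gave -0.25 ± 0.10 (95% interval -0.47 to -0.03, edgeR adjusted p = 0.194, and 0.061 to 0.441 over the 16 alternatives). OMVs against Control gave -0.11 ± 0.10 (-0.33 to 0.11) and IN@OMVs against OMVs -0.14 ± 0.10 (-0.36 to 0.08).

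Of the target genes, Tiparp was the best measured member, with 1235 to 1614 counts per library. Its level was 86.5, 75.0 and 77.6 CPM in Control, 85.4, 94.1 and 86.6 CPM in OMVs, and 76.1, 76.9 and 82.2 CPM in IN@OMVs. All OMVs libraries lay above all IN@OMVs libraries, and Control overlapped both. The log2 fold change of IN@OMVs against OMVs was -0.18 ± 0.07 (95% interval -0.33 to -0.02, edgeR adjusted p = 0.271), that of OMVs against Control 0.15 ± 0.07 (-0.00037 to 0.31, adjusted p = 0.591) and that of IN@OMVs against Control -0.02 ± 0.07 (-0.18 to 0.13, adjusted p = 0.899). The intervals of Tiparp were the narrowest of the 7 members.

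Ahrr, the repressor, had overlapping groups throughout. It was 1.55, 2.10 and 2.02 CPM in Control, 1.44, 1.75 and 2.33 CPM in OMVs, and 2.59, 1.82 and 1.98 CPM in IN@OMVs. The SD of its counts was 5.51 in Control, 7.09 in OMVs and 5.29 in IN@OMVs, where counting alone gives 5.69, 5.60 and 6. The log2 fold change was -0.04 ± 0.25 for OMVs (95% interval -0.61 to 0.53) and 0.17 ± 0.25 for IN@OMVs against Control (-0.39 to 0.73), so differences within these bounds are not excluded. IN@OMVs against OMVs gave 0.21 ± 0.25 (-0.35 to 0.78).

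Cyp1b1 varied more between libraries of 1 group than between groups. Its level was 3.34, 12.9 and 8.07 CPM in Control, 3.68, 7.52 and 8.12 CPM in OMVs, and 0.985, 5.76 and 9.25 CPM in IN@OMVs. In each group the library numbered 1 was the lowest, and the highest of the 9 values was 13.1 times the lowest. The log2 fold change of -0.60 ± 0.69 for IN@OMVs against Control (95% interval -2.16 to 0.96) became -0.12 without IN@OMVs 1. It ran from -1.25 (without IN@OMVs 3) to -0.094 (without Control 2) when single libraries were left out. Without the 3 libraries numbered 1 it was -0.49. OMVs against Control gave -0.33 ± 0.68 (-1.88 to 1.21), and 0.17 without Control 2. IN@OMVs against OMVs gave -0.27 ± 0.69 (-1.83 to 1.30), and 0.22 without IN@OMVs 1. IN@OMVs 1 was also the library with the lowest fibroblast markers (1450 CPM), and Control 2, the highest in Cyp1b1, had the highest (5639 CPM). Among those markers Pdgfra stood at 16.8 CPM in IN@OMVs 1 and at 43.2 to 59.8 CPM in the other 8 libraries. OMVs 1 and Control 1, also low in Cyp1b1, had 3823 and 4133 CPM of fibroblast markers, above the 3339 CPM of OMVs 3. Whether fibroblast RNA contributed to the Cyp1b1 values was not tested.

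**Figure D3:**
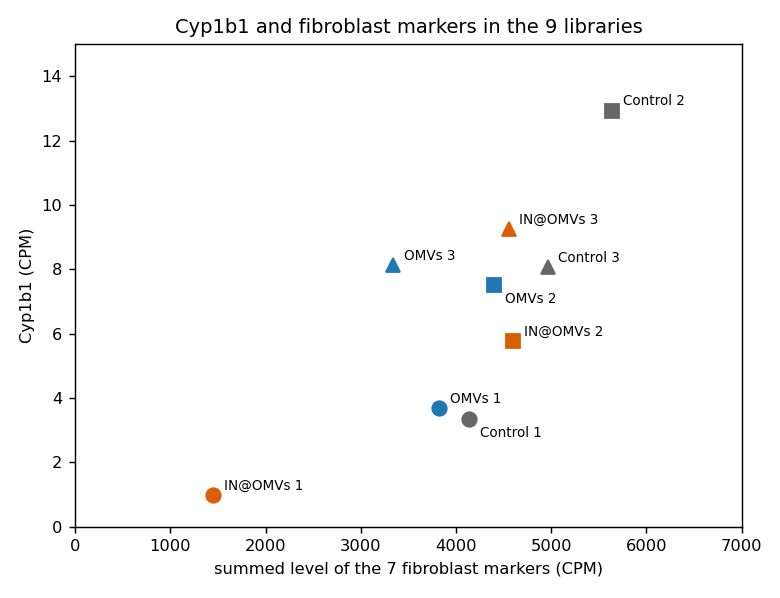
Cyp1b1 (y axis, CPM) against the summed level of 7 fibroblast markers (x axis, CPM) in each of the 9 libraries, coloured by group with a symbol per library number. IN@OMVs 1 is the lowest on both axes (0.985 and 1450 CPM) and Control 2 the highest on both (12.9 and 5639 CPM).

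Counted together, 0 of the 7 members passed for OMVs against Control, where edgeR called 0.42% of all genes, and DESeq2 and limma-voom also called 0. At an unadjusted p under 0.05 were 1 member, Il4i1, and 8.44% of all genes. For IN@OMVs against Control 1 of 7 passed, Il4i1, where edgeR called 6.55% of all genes, and 3 members (Ido1, Il4i1 and Ahr) and 19.8% of all genes had an unadjusted p under 0.05. For IN@OMVs against OMVs 0 of 7 passed by edgeR, DESeq2 or limma-voom, where edgeR called 2.85% of all genes and 1 member, Tiparp, beside 14.4% of all genes, had an unadjusted p under 0.05. The groups did not overlap for 1, 2 and 1 of the 7 members in these comparisons, in that order. That was so for 19.8%, 25.9% and 17.6% of all genes tested. The members' median log2 fold change was -0.04, -0.07 and -0.14, beside medians of -0.00049, -0.0024 and -0.0035 over all genes tested.

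**Figure D4:**
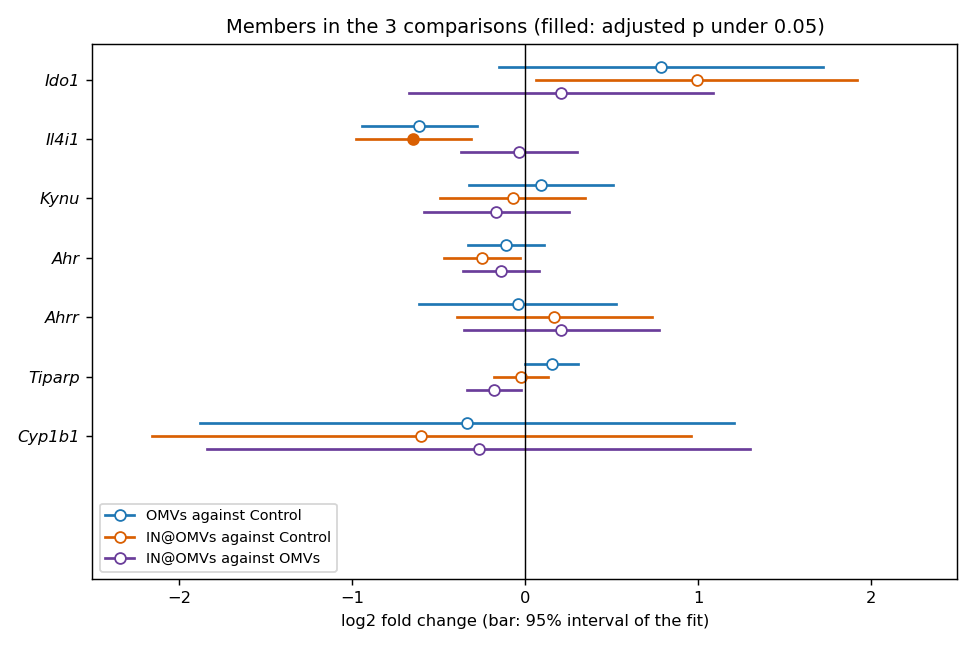
Log2 fold change (x axis, bars for 95% intervals of the fit) of each member (y axis) in the 3 comparisons (colours), drawn filled where the adjusted p was under 0.05. The 1 filled point is Il4i1 in IN@OMVs against Control at -0.65, and the intervals of Cyp1b1 and Ido1 are the widest.

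No other enzyme of the kynurenine route passed a test. Of 13 listed enzymes, Ido1 and Kynu among them, 9 were tested. The other 4 had few counts: at most 3 for Tdo2, the liver tryptophan dioxygenase, 2 for Acmsd, 9 for Qprt and 1 for Aadat in any library. No tested enzyme passed in any of the 3 comparisons by edgeR, DESeq2 or limma-voom, and 0, 1 and 1 had an unadjusted p under 0.05 in edgeR, beside 8.44%, 19.8% and 14.4% of all genes. The median log2 fold change was 0.01, 0.07 and -0.0017. Ido2, the paralogue of Ido1, was the least even of them, chosen here after its values were seen: 1.67, 1.29 and 1.61 CPM in Control, 2.81, 4.14 and 2.15 CPM in OMVs, and 0.862, 2.91 and 4.31 CPM in IN@OMVs. All OMVs libraries lay above Control (log2 fold change 0.99 ± 0.49, edgeR adjusted p = 0.669), and IN@OMVs spanned both. Kmo, which hydroxylates kynurenine, stood at 10.1 ± 0.70 CPM in Control, 9.20 ± 1.16 in OMVs and 10.6 ± 1.57 in IN@OMVs (SD, n = 3 each). Of 7 genes of the serotonin and melatonin route only Maoa was tested, and it did not pass (edgeR adjusted p = 0.628 for IN@OMVs against Control).

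Of 7 genes that move or use tryptophan, Wars and Slc3a2 rose in IN@OMVs against Control, with a median of 0.03 over the list. EdgeR called 6.55% of all genes in that comparison. Wars, the tryptophanyl-tRNA synthetase, was 64.9, 61.6 and 64.1 CPM in Control, 68.6, 67.5 and 68.6 CPM in OMVs, and 84.3, 81.7 and 81.9 CPM in IN@OMVs. The 3 groups did not overlap one another. It rose by 0.38 ± 0.04 in IN@OMVs against Control (edgeR adjusted p = 0.00121) and by 0.28 ± 0.04 against OMVs (adjusted p = 0.0111). The second call ended without OMVs 2 (adjusted p = 0.0642) or OMVs 3 (0.0522), and with only the 6 libraries compared (0.0613). Slc3a2, the heavy chain that the large neutral amino acid carriers share, rose from 220 ± 6.52 CPM in Control to 271 ± 8.69 CPM in IN@OMVs (0.30 ± 0.06, edgeR adjusted p = 0.0197). That call ended without Control 1 (adjusted p = 0.0791), Control 2 (0.0957), Control 3 (0.0639) or IN@OMVs 2 (0.0527). Of its light chains, Slc7a5, which carries tryptophan and kynurenine, stood at 53.7 ± 1.05 CPM in Control and 54.9 ± 11.5 CPM in IN@OMVs and did not pass (0.03 ± 0.16). Slc7a8 stood at 148 ± 6.87 CPM in Control and 200 ± 31.8 CPM in IN@OMVs, without overlap (0.43 ± 0.13, edgeR adjusted p = 0.0909). DESeq2 called Slc7a8 higher in IN@OMVs than in Control. Against OMVs 1 of the 7 rose in IN@OMVs, Wars, where edgeR called 2.85% of all genes. In OMVs against Control 0 passed by edgeR, DESeq2 or limma-voom (1 at an unadjusted p under 0.05 in edgeR, beside 8.44% of all genes).

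The partners that hold and move AhR did not pass by edgeR in any comparison, although single genes passed by DESeq2. Of 8 tested genes, Ahr and Ahrr included, 2, 3 and 2 had an unadjusted p under 0.05 for OMVs against Control, IN@OMVs against Control and IN@OMVs against OMVs, and limma-voom called 0 in each. Of all genes 8.44%, 19.8% and 14.4% had such a p in edgeR. DESeq2 called Ptges3, the p23 cochaperone, higher in both treated groups, and Arnt, the DNA-binding partner, lower in IN@OMVs than in Control and in OMVs. Arnt was 91.9, 85.5 and 89.3 CPM in Control, 86.2, 90.8 and 88.5 CPM in OMVs, and 78.8, 76.6 and 79.5 CPM in IN@OMVs, every IN@OMVs library below the other 6 (log2 fold change against Control -0.18 ± 0.05, edgeR adjusted p = 0.0579). These genes were chosen after their values were seen.

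The list of AhR target genes held 1 called gene. Cyp1a1, the most specific target, had 1 count in a single Control library and 0 in the other 8, and Gsta1 had at most 2.83 counts, so both stayed below the filter. Of the 10 targets tested, the members Cyp1b1, Ahrr and Tiparp included, 1 fell in IN@OMVs against Control and against OMVs. EdgeR called 6.55% and 2.85% of all genes in these comparisons. The gene was Serpinb2, a plasminogen activator inhibitor that NF-kB also induces. It was 12.0, 22.6 and 18.2 CPM in Control, 9.71, 11.7 and 13.3 CPM in OMVs, and 2.71, 4.05 and 5.12 CPM in IN@OMVs. All IN@OMVs libraries lay below the other 6, while Control 1 fell within the OMVs range. The log2 fold change was -2.15 ± 0.28 against Control (edgeR adjusted p = 0.00244) and -1.54 ± 0.28 against OMVs (adjusted p = 0.0225). Without Control 3 (adjusted p = 0.0511), IN@OMVs 2 (0.0706), OMVs 2 (0.0858) or OMVs 3 (0.0847) the call against OMVs ended. In limma-voom it was not made (adjusted p = 0.0657). Neutrophil markers also were lowest in IN@OMVs (129 to 195 CPM against 548 to 1118 CPM in the other 6 libraries). Within groups the order differed. Control 1 and IN@OMVs 1 had the highest neutrophil sums of their groups (1118 and 195 CPM) but the lowest Serpinb2. In OMVs, library 3 was the highest in both (727 CPM of neutrophil markers). The part of neutrophils in the Serpinb2 values was not tested. Nqo1, which NRF2 also induces, stood at 3.18 ± 0.18 CPM in Control, 2.74 ± 0.70 in OMVs and 4.74 ± 1.70 in IN@OMVs without passing (edgeR adjusted p = 0.314 against Control). In OMVs against Control 0 of the 10 targets passed by edgeR, DESeq2 or limma-voom, and 1 had an unadjusted p under 0.05 in edgeR, beside 8.44% of all genes.

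The interferon-gamma pathway, the classical inducer of Ido1, gave far higher counts than Ido1 in its transcription factors. Of 8 listed genes, all tested, 1 rose in OMVs against Control and 1 in IN@OMVs against OMVs, in both Irf1, and 0 fell, with medians of 0.15 and 0.11. EdgeR called 0.42% and 2.85% of all genes in these comparisons. Irf1, a transcription factor, was 171, 146 and 156 CPM in Control, 217, 230 and 224 CPM in OMVs, and 321, 275 and 303 CPM in IN@OMVs, with no overlap between any groups. It rose by 0.93 ± 0.08 in IN@OMVs against Control (edgeR adjusted p = 0.000234). Irf8 rose by 0.55 ± 0.13 (adjusted p = 0.0344, and 0.0547 with the block). The Irf8 call ended without Control 1 (0.0783), Control 2 (0.137), Control 3 (0.151), OMVs 1 (0.053) or OMVs 2 (0.0596). Irf1 was also higher in OMVs than in Control (0.51 ± 0.08, adjusted p = 0.0375, and 0.0698 with the block) and in IN@OMVs than in OMVs (0.42 ± 0.08, adjusted p = 0.0212). The first of these ended without any 1 of Control 1 (0.0613), Control 2 (0.221), Control 3 (0.222), OMVs 1 (0.0736), OMVs 2 (0.236), OMVs 3 (0.152) or IN@OMVs 3 (0.0847). The second ended without Control 3 (0.0547), IN@OMVs 3 (0.0832), OMVs 1 (0.0954), OMVs 2 (0.0749) or OMVs 3 (0.0847). Ifng itself, a T cell and natural killer cell product, was 7.57, 7.41 and 8.07 CPM in the libraries numbered 1 of Control, OMVs and IN@OMVs, and 0.933 to 3.78 CPM in the other 6.

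Tiparp, also named Parp7, was set beside 13 other genes of the PARP family, which transfer ADP-ribose. In IN@OMVs against Control 5 of the 13 rose and 0 fell, namely Parp3, Parp9, Parp11, Parp12 and Parp14, with a median of 0.20 over the list. EdgeR called 6.55% of all genes in that comparison, and the list was chosen with earlier results of these data known. Parp9 rose by 0.58 ± 0.07 (edgeR adjusted p = 0.00176) and Parp11 by 0.65 ± 0.08 (adjusted p = 0.00213). Estimated counts were not whole for Parp9 in 9 libraries and for Parp11 in 7, so some of their reads may match more than 1 gene. Parp14 rose by 0.51 ± 0.08 (adjusted p = 0.00674, and 0.0501 without Control 3). Parp3 rose by 0.41 ± 0.08 (adjusted p = 0.0176), a call that ended without Control 1 (0.0599), Control 2 (0.0773), Control 3 (0.0715), IN@OMVs 2 (0.0505) or IN@OMVs 3 (0.0593). In OMVs against Control 0 of the 13 passed by edgeR or limma-voom (3 at an unadjusted p under 0.05 in edgeR, beside 8.44% of all genes), and DESeq2 called Parp3. In IN@OMVs against OMVs Parp11 (0.44 ± 0.08, adjusted p = 0.0258) and Parp14 (0.40 ± 0.08, adjusted p = 0.0386) rose. Parp14 did not pass there with the block (0.0667), nor without any 1 of the 9 libraries except IN@OMVs 1 and IN@OMVs 2 (0.0617 to 0.16). Parp11 did not pass without Control 2 (0.0513), Control 3 (0.0554), IN@OMVs 3 (0.0991), OMVs 1 (0.113), OMVs 2 (0.092) or OMVs 3 (0.0916). Tiparp, with intervals on both sides of 0 in IN@OMVs against Control, was not among the genes that rose.

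**Figure D5:**
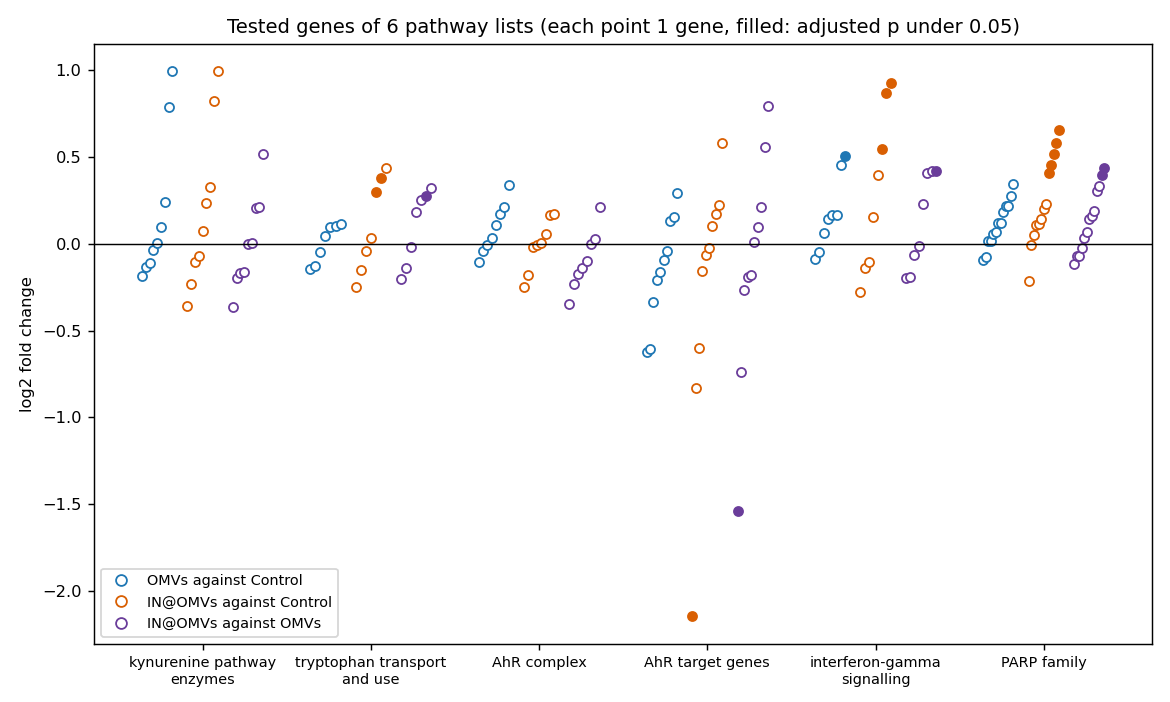
Log2 fold change (y axis) of each tested gene of 6 lists (x axis) in the 3 comparisons, drawn filled where the adjusted p was under 0.05. Filled points lie among tryptophan transport and use, interferon-gamma signalling and the PARP family, with Serpinb2 at -2.15 and -1.54 among the AhR targets and none among the kynurenine enzymes.

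The tested genes closest to each member over the 9 libraries were found by Pearson's r of log2 CPM among 10518 or 10519 named genes of at least 5 CPM. With 9 points and that many candidates, high values are found for any gene, so they are given as a description with no test. The pair closest to Il4i1 was Coq3 (r = 0.961) and Ccdc9 (0.958), and to Ido1 Pop1 (0.959) and Urgcp (0.942). For Kynu they were Map4k1 (0.971) and Pik3r4 (0.956), for Ahr Gdap2 (0.972) and Piwil2 (0.959), and for Ahrr Gnaq (0.968) and Mcfd2 (0.961). Tiparp was closest to Lrrc8c (0.921) and Iqsec1 (0.903). Cyp1b1 was closest to Gpx3 (0.979), a secreted glutathione peroxidase, and Nid1 (0.978), a basement membrane protein, at lowest 0.938 and 0.932 when any 1 library was left out.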

How the data were processed

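RNA was measured in 9 libraries, 3 each of Control, OMVs and IN@OMVs, after TRIzol extraction and oligo-dT library preparation, per the labels' protocols. The deposited table holds expected counts per gene symbol and library, a unit settled from the values: 88.8% to 89.6% of them were whole and the column totals differed. Per the submitters' processing notes, the tools were BWA, Bowtie2 and RSEM (versions not given) and the builds mm9 and hg19 (roles not given). Whether the authors counted by strand is not stated. Promoters are RefSeq sequences of GRCm38.p6, another build.

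Expected counts were rounded and tested with edgeR 4.0.16 (R 4.3.3): TMM factors, filterByExpr, 1 mean per group over all 9 libraries, quasi-likelihood contrasts, Benjamini-Hochberg adjustment over 13090 genes within each comparison, threshold 0.05. SE is the log2 fold change divided by the root of F, and 95% intervals use the fit's total degrees of freedom. Alternatives were RLE size factors, DESeq2 1.42.0, limma-voom (limma 3.58.1), no filter, only the 6 libraries compared, the replicate block, each library left out, and the libraries numbered 1 left out. The steps were tested on simulated data.

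The members and the 7 other lists and 11 marker lists were chosen with earlier results of these data known. All members were named whatever their p. Of each other list up to 4 genes with the smallest p among those past the threshold were named, plus the 2 most similar genes of each member. Genes outside this rule were chosen after their values were seen: Ido2, Kmo, Maoa, Slc7a5, Slc7a8, Arnt, Ptges3, Nqo1, Cyp1a1, Gsta1, Ifng, Parp12, Tbc1d17, Nup62, Atf5, Il4i1b, Ccl22, the untested enzymes and single markers. Some results of the lists are not reported here.

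What the replicate numbers mark is not stated. Deviations from the group means were correlated between libraries. At the same number, OMVs and Control gave 0.53, 0.37 and 0.12. IN@OMVs and Control gave 0.45, 0.31 and 0.15, and IN@OMVs and OMVs 0.073, 0.51 and -0.37. Some unlike numbers came as close: OMVs 2 and Control 3 (0.35), IN@OMVs 2 and Control 3 (0.36), IN@OMVs 3 and Control 2 (0.29). The rest of the unlike pairs with Control ran from -0.49 to 0.076. Between IN@OMVs and OMVs, unlike numbers reached 0.44 (IN@OMVs 1 and OMVs 3) and 0.4 (IN@OMVs 3 and OMVs 2), and the rest ran from -0.54 to -0.0049. These values set apart the libraries numbered 1 in the pairs with Control, but not between IN@OMVs and OMVs. They do not settle whether the numbers mark pairs. The reported tests did not pair libraries, and the replicate block was an alternative only.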

Additional observations from a re-analysis of the deposited data

How the results depend on the processing

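Of 336 values of the members under 16 alternatives, 309 kept their direction and side of the threshold, 11 lost the call (all of Il4i1 in IN@OMVs against Control) and 16 changed sign. The members called in IN@OMVs against Control went from 1 to 0 with the replicate block, with no filter, with only the 6 libraries compared and without the 3 libraries numbered 1, and lay between 0 and 1 when single libraries were left out. In both other comparisons 0 members were called under all 16 alternatives.

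Genes called over the whole table varied more. In OMVs against Control 55 became 20 with the replicate block, 207 with DESeq2, 36 with limma-voom, 115 with only the 6 libraries compared and 313 without those numbered 1 (0 to 266 leaving out single libraries). In IN@OMVs against Control 858 became 519 with only 6 libraries and 1475 without those numbered 1 (393 to 1635). In IN@OMVs against OMVs 373 became 646 with DESeq2, 195 with only 6 libraries and 844 without those numbered 1 (180 to 786). Fewer libraries enter some of these fits; otherwise the cause was not tested.

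None of the values that changed sign was past the threshold. Without the libraries numbered 1, the log2 fold change was -0.12 for Ahrr and 0.057 for Tiparp in IN@OMVs against Control and -0.10 for Ahrr in IN@OMVs against OMVs. Leaving out single libraries turned the sign of some small differences, here given by their range. In IN@OMVs against Control, Kynu ran from -0.23 to 0.057 (above 0 lacking Control 1, IN@OMVs 2 or IN@OMVs 3) and Tiparp from -0.066 to 0.039 (lacking Control 1). In IN@OMVs against OMVs, Cyp1b1 ran from -0.92 to 0.22 (lacking IN@OMVs 1), Ido1 from -0.21 (lacking IN@OMVs 2) to 0.46, Il4i1 from -0.13 to 0.077 (lacking IN@OMVs 2) and Parp3 from -0.0028 (lacking IN@OMVs 3) to 0.13. In OMVs against Control, Ahrr ran from -0.25 to 0.11 (above 0 lacking Control 2, Control 3 or OMVs 1), Cyp1b1 from -0.70 to 0.17 (lacking Control 2) and Kynu from -0.010 (below 0 lacking Control 3 or OMVs 3) to 0.22. Cell markers aside, the replicate block ended no other call of a named gene than those of Il4i1, Irf8, Irf1 (OMVs against Control) and Parp14 (IN@OMVs against OMVs). Counts were low in Ido1 (11 to 50 per library) and Ahrr (25 to 42). For Ido1 the SD of the counts was also above that of counting alone in each group. It was 6.81 against 4.04 in Control, 7.37 against 5.32 in OMVs and 15.8 against 5.72 in IN@OMVs.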
